A study of Mus musculus with 6 samples.

Results

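The 10 genes described here carry peptides to the cell surface on major histocompatibility complex (MHC) class I molecules. They were chosen by symbol and are H2-K1, H2-D1, H2-T23, B2m, Tap1, Tap2, Tapbp, Psmb8, Psmb9 and Nlrc5. All 10 were found among the 14148 genes of the expression table, and all 10 passed the filter on low values, which 11624 genes passed. The samples were microglia, the resident macrophages of the brain, from the hippocampus of male C57BL/6 mice aged 18 months. Live CD11b+ CD45lo cells were separated by flow cytometry on BODIPY, a dye that stains neutral lipid, into a BODIPY-low (lipid droplet-low, LD-low) and a BODIPY-high (lipid droplet-high, LD-high) group. Each group had 3 samples, each sample pooled the hippocampi of 3 mice, and about 10000 cells were sorted per sample. All mice were of this age, so the contrast is between cells with little and much stained lipid at a single age.

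Class I molecules display short peptides from proteins made inside the cell to CD8 T cells and to natural killer cells. The proteasome cuts the peptides, the TAP transporter moves them into the endoplasmic reticulum, and tapasin holds empty heavy chains at TAP until a peptide is bound with beta-2 microglobulin. Interferon gamma raises most parts of this route, including the immunoproteasome subunits that replace standard catalytic subunits, and NLRC5 is the transcriptional coactivator of class I genes. Microglia express class I molecules, and more of them with age and inflammation.

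The table gives normalized counts, that is, read counts per gene divided by 1 size factor per library. The libraries held 15895576 to 38489448 reads, of which the 10 genes took 0.327% to 0.364%. The fewest reads behind any value of the 10 genes were 121, for Nlrc5 in LD-high 3. Across all tested genes, 178 (1.53%) were higher and 212 (1.82%) lower in LD-high at an adjusted p under 0.05 (limma, Benjamini-Hochberg over all 11624 genes), which is 3.36% called. With libraries scaled to equal totals, the split was 118 higher and 233 lower. Nothing in the labels says whether the pools held different mice, so p-values measure the spread between these samples only.

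The promoters of the class I genes are shown because they carry the elements through which interferon, NF-kappa-B and NLRC5 are known to act on them. RefSeq promoter windows, from 250 bases before to 50 after a transcript start, were found for 8 of the 10 genes and placed on mm9 by exact match. Capitals mark matches, on either strand, to 4 motifs: an interferon regulatory factor element (IRF, GAANNGAAA), the kappa-B element, the core of the X2 box (TGACG) and the core of the Y box (CCAAT). The windows lie at chr17:34137243-34137542 (minus strand) for H2-K1, chr17:35399789-35400088 (plus) for H2-D1, chr2:121973173-121973472 (plus) for B2m, chr17:36169597-36169896 (minus) for H2-T23 and chr17:34324251-34324550 (plus) for Tap1. The Tap1 window shares 275 bases with that of Psmb9, which is read from the opposite strand.
H2-K1: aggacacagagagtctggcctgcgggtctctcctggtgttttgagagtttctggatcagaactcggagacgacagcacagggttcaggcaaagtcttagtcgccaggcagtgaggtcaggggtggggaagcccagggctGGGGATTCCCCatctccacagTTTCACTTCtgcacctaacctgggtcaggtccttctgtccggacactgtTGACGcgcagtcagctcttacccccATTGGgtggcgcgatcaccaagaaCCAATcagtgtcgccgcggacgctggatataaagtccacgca
H2-D1: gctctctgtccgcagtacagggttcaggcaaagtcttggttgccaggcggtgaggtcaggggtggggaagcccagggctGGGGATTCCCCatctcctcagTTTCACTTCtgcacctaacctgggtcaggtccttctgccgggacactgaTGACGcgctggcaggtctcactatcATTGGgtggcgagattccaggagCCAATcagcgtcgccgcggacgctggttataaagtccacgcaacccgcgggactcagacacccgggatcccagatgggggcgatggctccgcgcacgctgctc
B2m: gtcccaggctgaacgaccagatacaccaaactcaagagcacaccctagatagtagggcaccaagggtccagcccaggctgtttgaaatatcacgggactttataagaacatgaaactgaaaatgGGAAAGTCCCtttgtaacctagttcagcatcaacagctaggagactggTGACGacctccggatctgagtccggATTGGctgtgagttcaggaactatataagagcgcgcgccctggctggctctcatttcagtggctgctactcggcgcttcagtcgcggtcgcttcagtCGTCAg
H2-T23: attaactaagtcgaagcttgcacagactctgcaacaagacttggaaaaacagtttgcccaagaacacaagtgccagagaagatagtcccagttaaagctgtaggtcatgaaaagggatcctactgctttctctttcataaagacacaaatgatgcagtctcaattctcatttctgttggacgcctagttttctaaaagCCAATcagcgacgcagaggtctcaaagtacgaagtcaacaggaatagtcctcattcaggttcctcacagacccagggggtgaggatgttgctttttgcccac
Tap1: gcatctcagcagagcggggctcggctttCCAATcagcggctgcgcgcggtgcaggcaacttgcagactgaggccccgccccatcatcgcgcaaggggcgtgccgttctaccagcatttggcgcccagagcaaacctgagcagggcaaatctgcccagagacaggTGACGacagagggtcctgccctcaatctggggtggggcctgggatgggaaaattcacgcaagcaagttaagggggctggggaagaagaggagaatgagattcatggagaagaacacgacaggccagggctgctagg

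The windows of H2-K1, H2-D1 and B2m held an X2 core followed after 20 bases by a Y core on the other strand (ATTGG). This spacing was read off these 3 sequences, and 31 of 32851 RefSeq windows (0.0944%) held it. A second RefSeq window of H2-K1 was identical to that of H2-D1 at 87.4% of 254 aligned positions. The kappa-B element was found in the same 3 genes, against 4.51% of all windows. The IRF element was found in H2-K1 and H2-D1 and in 7.52% of all windows. Its pattern fixes the spacing of GAA and GAAA, and other spacings were not searched. The B2m window holds GAAACTGAAA, left in lower case, just before its kappa-B element, so an unmarked window is not shown to lack interferon elements. The other cores are common: TGACG was found in 5 of the 8 genes and 20.8% of all windows, and CCAAT in 7 of the 8 and 37.4%. Psmb8 held the STAT element (GAS, TTCNNNGAA), which 8.3% of all windows hold. A match describes the letters of the window and is not evidence of binding.

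**Figure D1:**
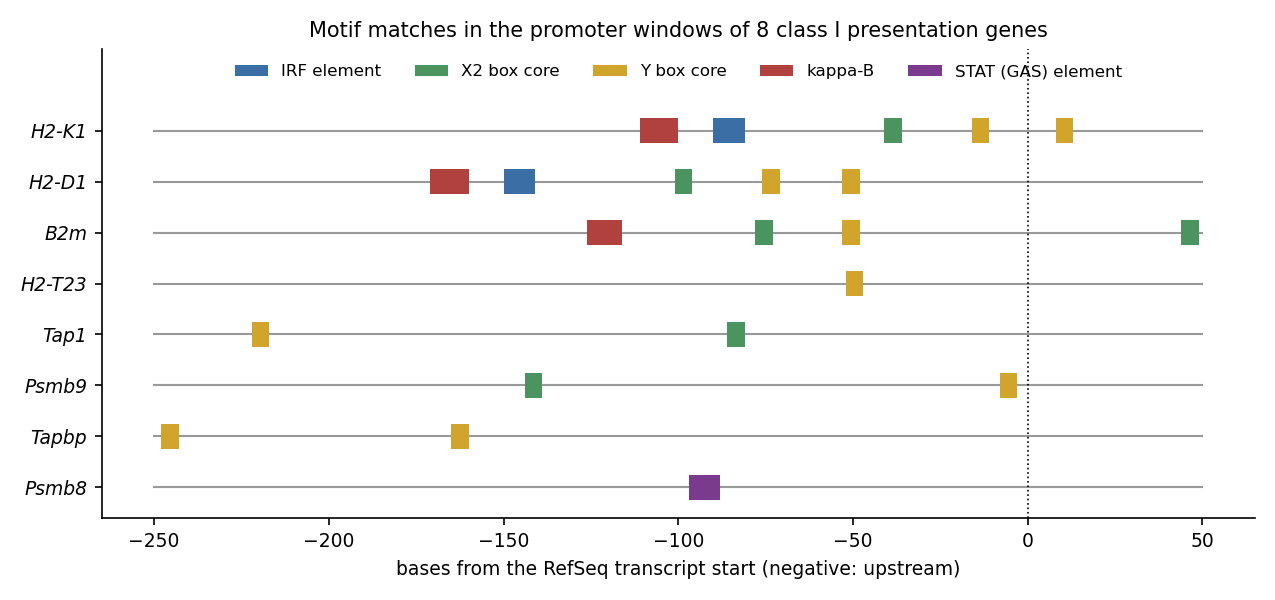
Positions of the motif matches in the promoter windows of 8 class I presentation genes, in bases from the RefSeq transcript start (x axis, negative upstream), 1 line per gene and 1 colour per motif. H2-K1, H2-D1 and B2m share the order kappa-B, X2, Y, and only Psmb8 has the STAT element in its window.

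None of the 10 genes passed the test between LD-high and LD-low microglia. By limma 0 of 10 were called, against 3.36% of all tested genes. The other tools called 0 of 10 as well, edgeR against 3.24% and DESeq2 against 6.27% of all tested genes, and by limma 3 had an unadjusted p under 0.05 against 19.8%. Changes ran from -0.29 for Nlrc5 to 0.20 for Psmb8 on the log2 scale, with a median of -0.07 (all tested genes, -0.01). The median size of change without sign was 0.13 for the 10 genes and 0.14 for all tested genes. The 3 LD-high libraries lay wholly above the LD-low ones for Psmb8 and wholly below for Tap1 and Tap2, that is, 3 of 10 genes, while 24.3% of all tested genes did not overlap. The 95% intervals of 7 genes included 0. In sorted pools of cells, fewer cells with a transcript and less of it per cell cannot be told apart.

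**Figure D2:**
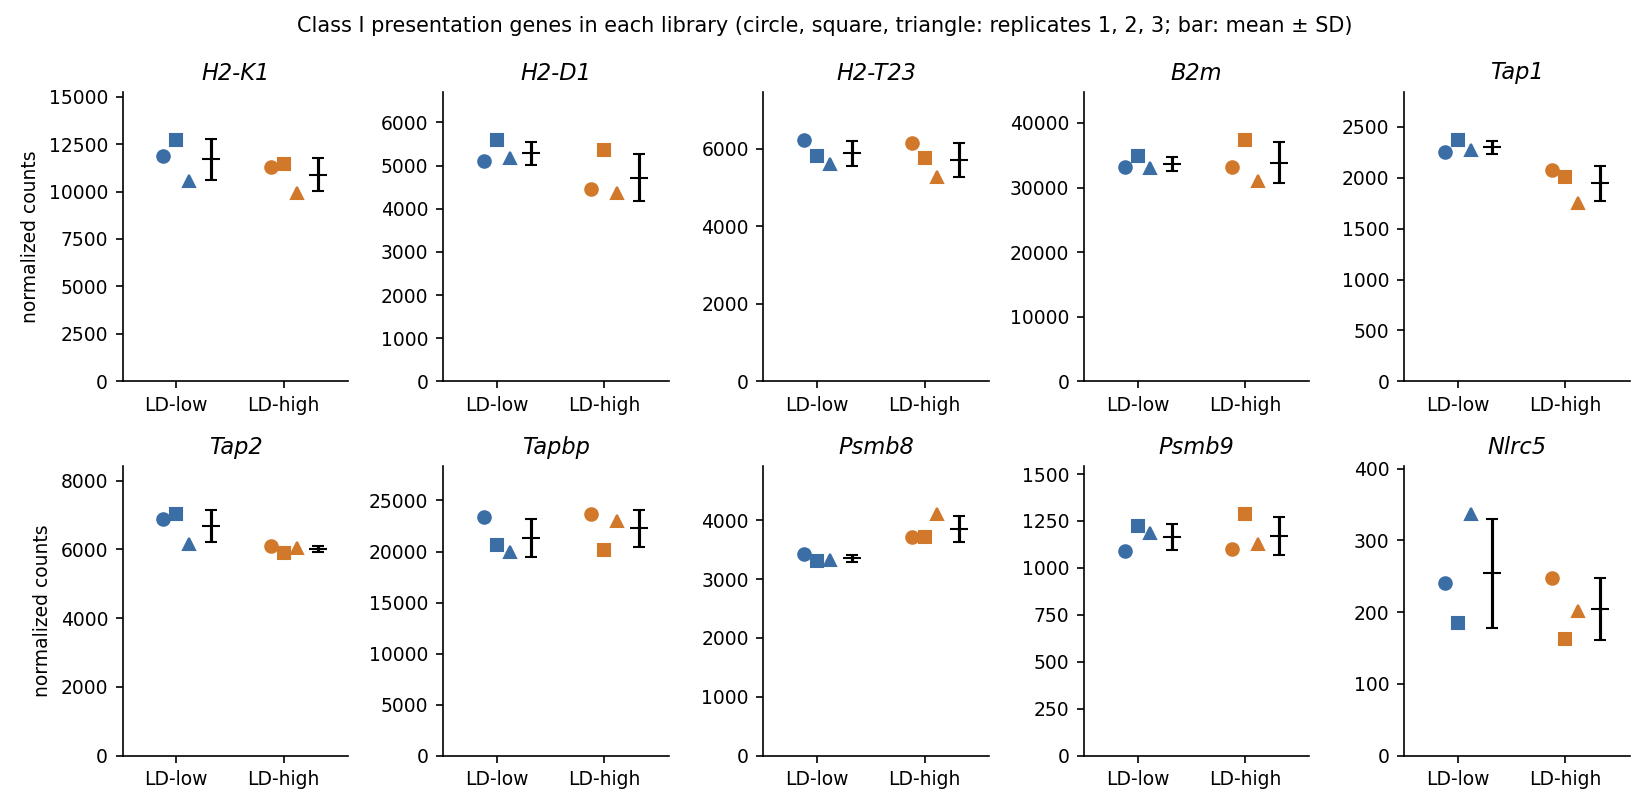
Normalized count of each of the 10 class I genes in the 3 LD-low and 3 LD-high libraries, with 1 point per library and the group means. The groups overlap for 7 genes and are apart for Tap1, Tap2 and Psmb8.

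H2-K1 and H2-D1 encode the classical heavy chains that hold the peptide in this strain. H2-K1 (chromosome 17, 34132962 to 34137278, minus strand) had 11862, 12701 and 10550 normalized counts in LD-low 1, 2 and 3 and 11302, 11473 and 9901 in LD-high 1, 2 and 3. The groups overlapped, and LD-high 3 was the lowest library. The log2 change was -0.10 ± 0.08 (SE; 95% interval -0.27 to 0.07; limma adjusted p = 0.510). H2-D1 (chromosome 17, 35399675 to 35404444, plus strand) had 5105, 5585 and 5163 in LD-low and 4447, 5349 and 4366 in LD-high. LD-high 2 sat among the LD-low libraries and the other two LD-high libraries below them. Its log2 change was -0.17 ± 0.08 (-0.34 to 0.01; adjusted p = 0.269).

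H2-T23 encodes Qa-1, a non-classical heavy chain that presents mainly leader peptides of other class I chains to receptors of natural killer and T cells. It lies at 36166718 to 36169800 on the minus strand of chromosome 17 and had 6219, 5813 and 5606 normalized counts in LD-low and 6136, 5761 and 5264 in LD-high. Values interleaved between the groups, with a log2 change of -0.04 ± 0.07 (-0.20 to 0.12; limma adjusted p = 0.808). Near-identical copies limit these values: 4.64% of the 100-base windows of H2-D1 and 4.44% of those of H2-T23 also occur in transcripts of another gene. For H2-K1 that share was 0%. At 50 bases the shares were 14.3% for H2-D1, 14.8% for H2-T23 and 8.87% for H2-K1.

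B2m, the light chain shared by all class I molecules, had the highest level of the 10 genes per kilobase. It lies on chromosome 2 (121973422 to 121978819, plus strand). It had 33185, 34951 and 32983 normalized counts in LD-low and 33244, 37323 and 31065 in LD-high. The highest and the lowest library were both LD-high. On the log2 scale the change was 0.0036 ± 0.08 (-0.16 to 0.17; limma adjusted p = 0.985), an interval of -10.5% to 12.3% on the linear scale. The ratio of B2m to H2-K1 within each library was higher in LD-high by 0.11 on the log2 scale, with overlapping groups (exact permutation p = 0.2, adjusted over 5 planned ratios 0.5). With 3 libraries against 3, the smallest 2-sided p of such a test is 0.1.

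Other class I heavy chains were few in the table: 6 of 20 on the list, of which 5 could be tested. H2-T24, another gene of the T region, fell in LD-high by 0.42 on the log2 scale (SE 0.10; limma adjusted p = 0.0359). It had 949, 1149 and 1000 normalized counts in LD-low and 717, 804 and 798 in LD-high, without overlap. The call was lost on leaving out any single library except LD-low 1, with adjusted p between 0.0642 and 0.168, and with quantile normalization (0.0560). The ratio of H2-T24 to H2-K1 differed by -0.31 with overlapping groups (exact permutation p = 0.2, adjusted over 6 ratios chosen after the values had been seen 0.2). H2-T10 had 38.6, 35.7 and 49.2 in LD-low and 17.9, 17.9 and 18.4 in LD-high (log2 change -1.13 ± 0.37, adjusted p = 0.107). Few reads lay behind it (24, 16 and 11 in LD-high 1, 2 and 3), and the annotation used for coordinates lists it as a polymorphic pseudogene. Of its 100-base windows 9.72% also occur in H2-T22, and of its 50-base windows 40.5% occur in H2-T22 or other genes. Limma called 1 of the 5 tested genes, against 3.36% of all tested genes. All 5 had changes below 0 (5962 of all 11624 tested genes), with a median of -0.49 (all tested genes, -0.01). Of the class I-like genes, whose proteins resemble class I chains but serve other tasks, 5 were tested. Of these 0 were called by limma or edgeR and 1 by DESeq2, and 1 had an unadjusted p under 0.05 (median 0.12). Of all tested genes edgeR called 3.24% and DESeq2 6.27%, and 19.8% had an unadjusted p under 0.05 by limma. The neonatal Fc receptor gene Fcgrt stood 0.26 ± 0.07 above LD-low on the log2 scale (adjusted p = 0.0511), and Hfe, a regulator of iron uptake, 0.12 ± 0.07 (adjusted p = 0.375).

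The transporter genes Tap1 and Tap2 encode the partner chains of TAP. Tap1 had the smallest adjusted p of the 10 genes. It lies on chromosome 17 (34324498 to 34334170, plus strand) and had 2254, 2367 and 2268 normalized counts in LD-low and 2072, 2009 and 1746 in LD-high. Every LD-high library was below every LD-low library, and LD-high 3, the shallowest library, was the lowest. The log2 change was -0.24 ± 0.08 (-0.42 to -0.07; limma adjusted p = 0.108), and -0.17 without LD-high 3. Tap2 (34340472 to 34353266, plus strand of the same chromosome) had 6893, 7013 and 6146 in LD-low and 6101, 5904 and 6029 in LD-high. The groups were apart by little, since LD-low 3 was close to the LD-high values. The log2 change was -0.15 ± 0.07 (-0.30 to -0.0043; limma adjusted p = 0.238). The ratio of Tap1 to Tap2 differed by -0.09 on the log2 scale, with overlap (exact permutation p = 0.6, adjusted 0.6).

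Tapbp encodes tapasin, which bridges TAP and the empty class I molecule. It lies on chromosome 17 (34052844 to 34066235, plus strand) and had 23393, 20620 and 19930 normalized counts in LD-low and 23629, 20194 and 22979 in LD-high. The groups overlapped over nearly their whole range, and the change was 0.06 ± 0.08 (-0.11 to 0.23; limma adjusted p = 0.713). Of 8 other genes that help loading in the endoplasmic reticulum, 0 were called by limma, edgeR or DESeq2. These tools called 3.36%, 3.24% and 6.27% of all tested genes. By limma 0 of the 8 had an unadjusted p under 0.05, against 19.8%, and the median was 0.02. The chaperones Canx and Calr, calnexin and calreticulin, had changes in opposite directions, 0.14 ± 0.07 (adjusted p = 0.268) and -0.14 ± 0.09 (adjusted p = 0.388).

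Of the immunoproteasome genes, Psmb8 encodes the inducible subunit that takes the place of the standard subunit Psmb5. It lies on chromosome 17 (34334666 to 34338399, plus strand) and had 3426, 3306 and 3328 normalized counts in LD-low and 3713, 3722 and 4097 in LD-high. Every LD-high library was above every LD-low library, with LD-high 3 the highest. The log2 change was 0.20 ± 0.07 (0.05 to 0.34; limma adjusted p = 0.132), and 0.15 without LD-high 3. Psmb9, which takes the place of Psmb6, lies at 34318933 to 34324709 on the minus strand and had 1090, 1222 and 1188 in LD-low and 1099, 1285 and 1127 in LD-high. Its values interleaved, with a log2 change of 0.0028 ± 0.09 (-0.19 to 0.20; adjusted p = 0.990).

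The standard subunits were measured beside them. Psmb5 had 523, 527 and 570 normalized counts in LD-low and 668, 658 and 646 in LD-high, without overlap (log2 change 0.28 ± 0.10, limma adjusted p = 0.132). Psmb6 had a change of 0.17 ± 0.07 (adjusted p = 0.211) and Psmb7 of 0.06 ± 0.09 (adjusted p = 0.770). The inducible subunit Psmb10, which replaces Psmb7, had 0.08 ± 0.07, with overlapping groups (adjusted p = 0.576). The activator subunits Psme1 and Psme2, which open the proteasome gate, had 0.20 ± 0.07 (adjusted p = 0.127) and 0.12 ± 0.08 (adjusted p = 0.434), and the assembly factor Pomp 0.20 ± 0.08 (adjusted p = 0.171). Of these 4 other immunoproteasome genes 0 were called by limma, edgeR or DESeq2, 2 had an unadjusted p under 0.05, and 3 lay above LD-low without overlap. The 5 standard counterparts gave the same counts (0 called by each tool, 2 and 3), where 12.7% of all tested genes lay above without overlap. Limma called 3.36% of all tested genes, edgeR 3.24% and DESeq2 6.27%, and 19.8% had an unadjusted p under 0.05 by limma.

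Ratios of inducible to standard subunit address whether the proteasome mix differed between the groups. The ratio of Psmb8 to Psmb5 differed (LD-high minus LD-low) by -0.09 on the log2 scale (exact permutation p = 0.3, adjusted over 5 ratios 0.5). Psmb9 to Psmb6 differed by -0.17 (exact p = 0.2, adjusted 0.5) and Psmb10 to Psmb7 by 0.02 (exact p = 0.6, adjusted 0.6). The groups overlapped in all 3. Per kilobase of all exons, Psmb8 stood at 1.87 to 2.21 times Psmb5, Psmb10 at 2.43 to 2.60 times Psmb7, and Psmb9 at 0.246 to 0.314 times Psmb6 over the 6 libraries. Per kilobase of the longest coding transcript the ranges were 2.97 to 3.50, 2.32 to 2.49 and 0.285 to 0.362.

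Tap1 and Psmb9 start from a shared region on opposite strands and overlap by 212 exon bases, so reads there cannot be assigned by strand in these libraries. Exons of Psmb8 also overlap a gene model on the other strand by 187 bases, and exons of Tap2 overlap such models by 165 and 533 bases. Psmb9, Tap1, Psmb8 and Tap2 follow each other within 34334 bases of chromosome 17, and their changes had no common sign. The ratio of Tap1 to its neighbour Psmb8 differed (LD-high minus LD-low) by -0.44 on the log2 scale, with LD-high below LD-low and no overlap, and that of Tap1 to Psmb9 by -0.25 (exact permutation p = 0.1 for each, adjusted over 6 ratios 0.12). These ratios were chosen after the values had been seen. Tap1 lay wholly below and Psmb8 wholly above LD-low, so their ratio had to separate the groups. Its exact p was fixed by this and adds nothing to the values of both genes.

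**Figure D3:**
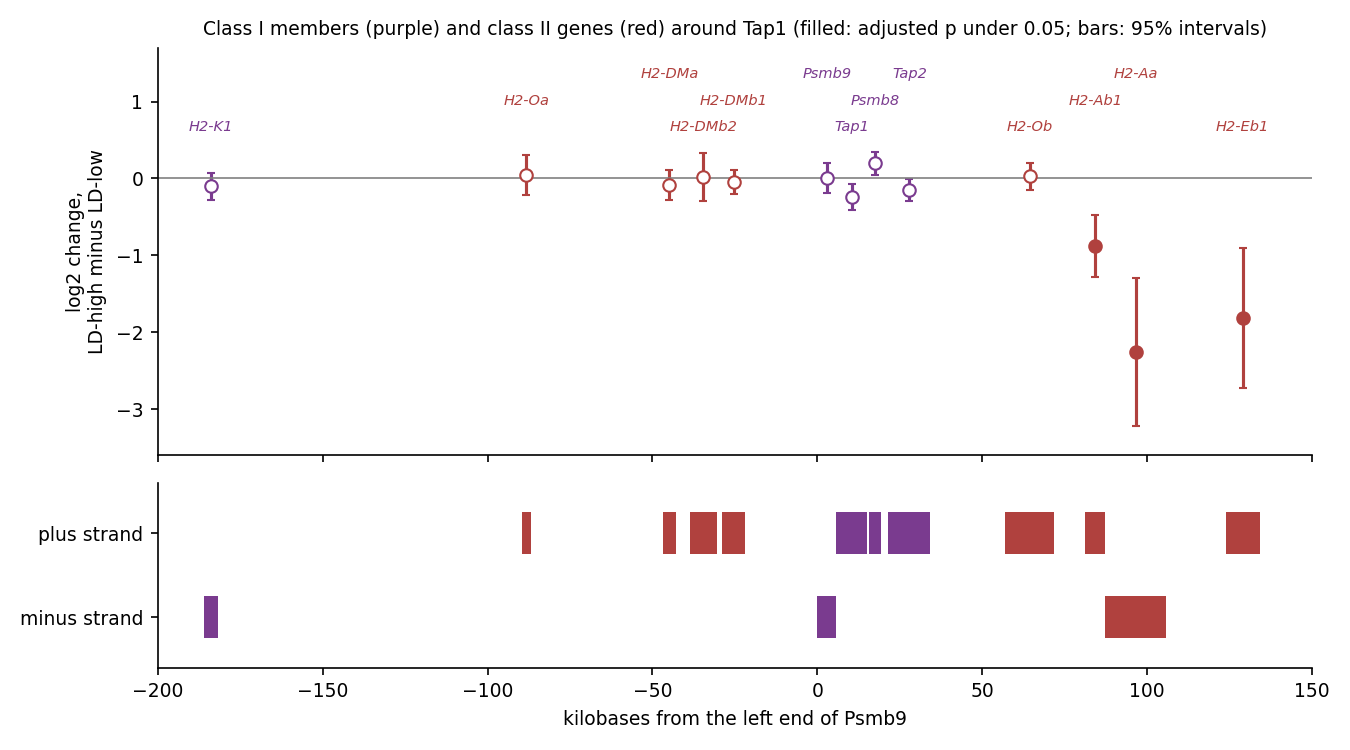
Log2 change (LD-high minus LD-low, 95% interval, upper panel) and gene spans by strand (lower panel) along the MHC region around Tap1, in kilobases from the left end of Psmb9. The class I genes in purple lie between -0.24 and 0.20, and the class II genes H2-Ab1, H2-Aa and H2-Eb1 to their right lie below -0.8.

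Nlrc5, the coactivator of class I genes, had the lowest level of the 10 per kilobase. It lies on chromosome 8 (96996663 to 97051172, plus strand), and the annotation used for coordinates lists it as a long non-coding RNA. It had 241, 185 and 336 normalized counts in LD-low and 248, 162 and 202 in LD-high. The spread within LD-low was wider than the gap between the means of 254 ± 76.4 and 204 ± 42.9 (SD, n = 3 each). The log2 change was -0.29 ± 0.21 (-0.74 to 0.16; limma adjusted p = 0.472) and ran from -0.50 without LD-low 2 to -0.07 without LD-low 3. Of 14 other tested class I transcription genes, 0 were called by limma, edgeR or DESeq2, against 3.36%, 3.24% and 6.27% of all tested genes. By limma 0 had an unadjusted p under 0.05, against 19.8%, and the median was -0.01. Irf1, an interferon-induced activator of class I promoters, had -0.14 ± 0.07 (adjusted p = 0.253), and Rfx5, which binds the X box, -0.18 ± 0.09 (adjusted p = 0.313). The paired X2 and Y cores were found in windows of 27 genes, of which 21 were tested. Of these 2 of 21 were called, against 3.36% of all tested genes: Ghitm (0.30 on the log2 scale) and Kcnq1ot1 (-1.16, an RNA that lies opposite Kcnq1), both named after their values were seen. The median was -0.01 with 12 of 21 below 0.

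Levels of the 10 genes were set in order per kilobase, since longer transcripts collect more reads. Over the length of all exons of a gene, the LD-low mean was 39194 normalized counts per kilobase for B2m, 6463 for Tapbp, 4488 for H2-K1, 2042 for H2-D1, 2035 for H2-T23, 1768 for Tap2, 1226 for Psmb8, 419 for Tap1, 319 for Psmb9 and 34.8 for Nlrc5. Over the longest coding transcript, a length chosen after the values had been seen, the means were 39194 for B2m, 7365 for Tapbp, 7292 for H2-K1, 3994 for H2-T23, 2514 for H2-D1, 2060 for Psmb8, 1942 for Tap2, 864 for Psmb9 and 778 for Tap1. Nlrc5 has no coding transcript in the annotation and stood at 36.6 over its longest one. B2m was highest and Nlrc5 lowest by both lengths. Tap1 was above Psmb9 in 6 of 6 libraries by the first length and in 0 of 6 by the second, and H2-D1 above H2-T23 in 3 and in 0. Neither the order within those pairs nor that of Tap2 and Psmb8, or of Tapbp and H2-K1, can be given without the transcripts in use. B2m stood at 8.35 to 9.87 times H2-K1 by the first length and 5.14 to 6.07 times by the second. The annotation also holds 2 overlapping entries for Psmb9.

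Class II genes, which present peptides from material taken up by the cell, were measured in the same libraries. Of 9 tested, 4 fell in LD-high and 0 rose, against 1.82% of all tested genes called lower. Of the 10 class I genes 0 passed, and the difference between these counts was not tested. Cd74, the invariant chain, had 2292, 1618 and 1425 normalized counts in LD-low and 1008, 934 and 771 in LD-high, all below LD-low. It fell by 0.95 on the log2 scale (SE 0.14; limma adjusted p = 0.00381) and passed on leaving out any single library. H2-Aa had 378, 135 and 140 in LD-low and 89.4, 31.4 and 21.7 in LD-high. It had 120, 28 and 13 reads in LD-high 1, 2 and 3. It fell by 2.26 (SE 0.45; adjusted p = 0.0181), H2-Ab1 by 0.88 (SE 0.19; adjusted p = 0.0250) and H2-Eb1 by 1.82 (SE 0.43; adjusted p = 0.0333). H2-Aa and H2-Ab1 lost the call without LD-low 3, LD-high 2 or LD-high 3 (adjusted p up to 0.0702 and 0.0742), and H2-Eb1 in 5 of 6 such fits (up to 0.0943). By tool, 4 of 9 class II genes were called by edgeR and 3 by DESeq2, which did not call H2-Aa (adjusted p = 0.0624). With quantile normalization H2-Ab1 (0.0567) and H2-Eb1 (0.0828) were not called. H2-Aa and H2-Ab1 overlap at their ends on opposite strands. The peptide exchange genes of class II (H2-DMa, H2-DMb1, H2-DMb2, H2-Oa and H2-Ob) did not pass.

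Class II genes were also set against class I genes within each library. The ratio of Cd74 to B2m differed (LD-high minus LD-low) by -0.96 on the log2 scale, H2-Ab1 to H2-K1 by -0.78 and H2-Aa to H2-K1 by -2.16. In each the LD-high libraries lay wholly below the LD-low ones (exact permutation p = 0.1, the smallest possible, adjusted over 6 ratios 0.12). These 3 ratios are of the same 6 chosen after the values had been seen, in which the groups were apart in 5 and overlapped for H2-T24 to H2-K1. Of those apart, Tap1 to Psmb8 had to be, as given above.

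**Figure D4:**
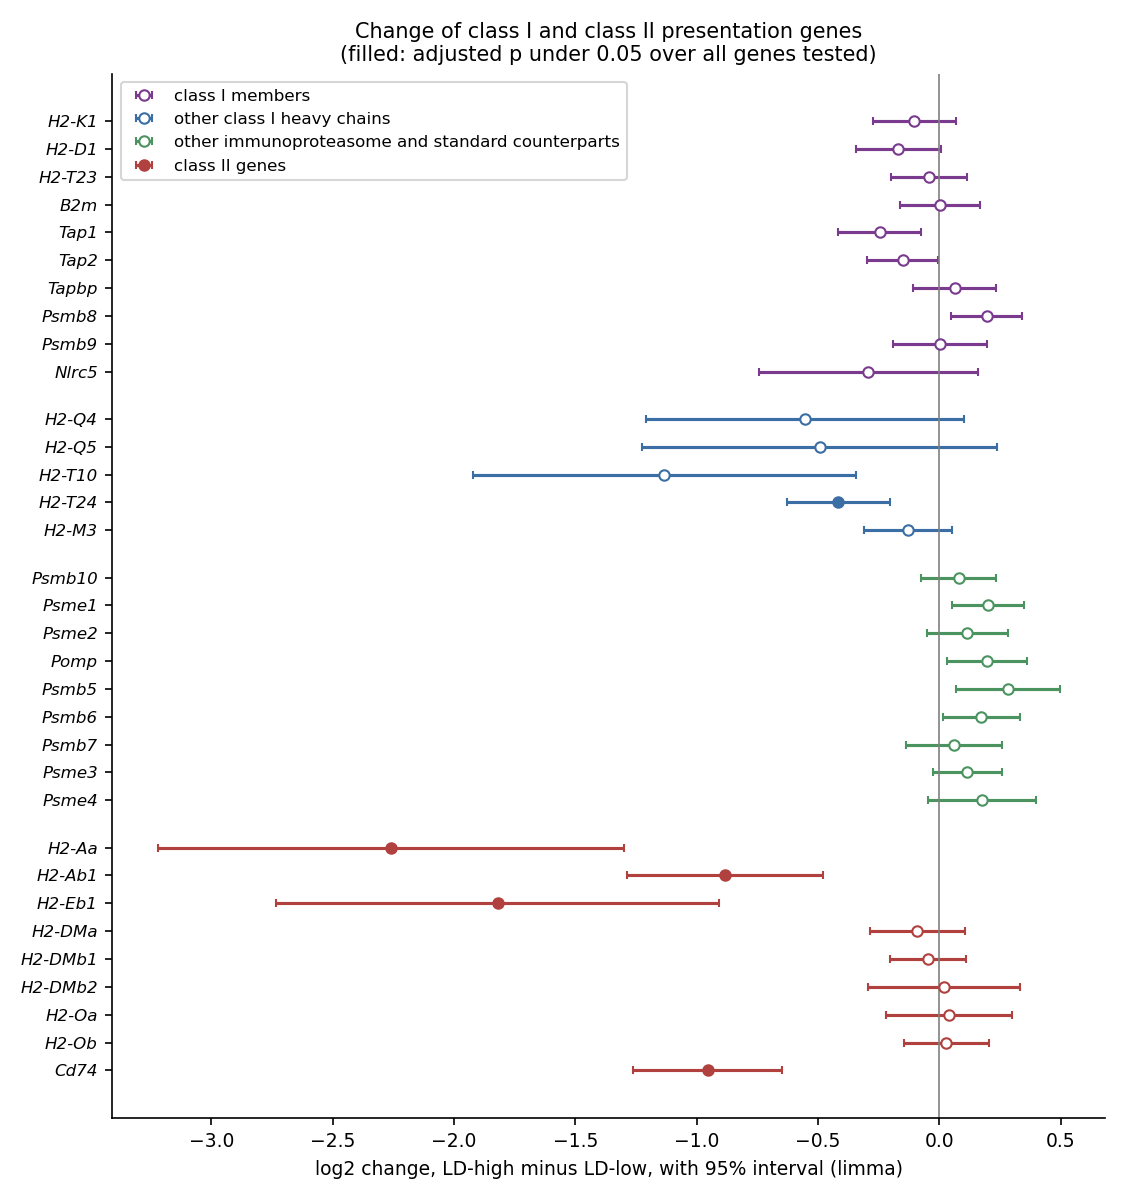
Log2 change (LD-high minus LD-low) with the 95% interval of limma for class I genes, other heavy chains, proteasome genes and class II genes, filled where the adjusted p is under 0.05. The 10 class I genes are unfilled, and 7 of their intervals include 0. H2-T24, Cd74, H2-Aa, H2-Ab1 and H2-Eb1 are filled and below 0.

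Of 14 genes for interferon receptors and their signalling 1 rose and 1 fell, where 1.53% of all tested genes were called higher and 1.82% lower. Jak1, the kinase of all 3 interferon receptor types, rose by 0.26 on the log2 scale (SE 0.07; limma adjusted p = 0.0447), and Irf7, which drives type I interferon, fell by 0.66 (SE 0.17; adjusted p = 0.0457). Jak1 lost the call on leaving out any single library except LD-low 1 (adjusted p up to 0.171) and with edgeR (0.0529). Irf7 lost it in 4 of 6 such fits (up to 0.182) and with quantile normalization (0.0791). The list had a median of -0.06.

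Of 32 interferon-stimulated genes outside antigen presentation, 4 fell and 0 rose, against 1.82% of all tested genes called lower, and 30 were below 0 (median -0.31, all tested genes -0.01). Rsad2 and Oas3, which act against viral replication, fell by 1.29 (SE 0.25; limma adjusted p = 0.0157) and 2.16 (SE 0.56; adjusted p = 0.0494). Ifitm3, which blocks viral entry, fell by 0.75 (SE 0.16; adjusted p = 0.0250), and the interferon-inducible GTPase Iigp1 by 1.86 (SE 0.40; adjusted p = 0.0260). All 4 calls were lost in 2 to 5 of the 6 fits without a library: Rsad2 without LD-low 2 or LD-low 3 (adjusted p up to 0.102), Ifitm3 in 4 (up to 0.119), Iigp1 in 3 (up to 0.115) and Oas3 in 5 (up to 0.186). Quantile normalization ended the calls of Iigp1 (0.0504) and Oas3 (0.0913), and edgeR that of Oas3 (0.0748). Few reads lay behind Iigp1 (22, 15 and 5 in LD-high 1, 2 and 3) and Oas3 (35, 6 and 3), so their changes are imprecise. In the same libraries 6 of the 10 class I genes had changes below 0 and 4 above, from -0.29 to 0.20.

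Cytosolic peptidases trim peptides before transport, and limma called 1 of 8 tested, against 3.36% of all tested genes. This was Nrd1, which fell by 0.32 on the log2 scale (SE 0.08, limma adjusted p = 0.0468). It lost the call without each of the 6 libraries in turn (adjusted p 0.0502 to 0.162) and with quantile normalization (0.0530). Lnpep, which trims peptides in endosomes, had -0.33 ± 0.15 (adjusted p = 0.238). Receptors for class I and their relatives were few: 3 of 7 were listed, without the CD8 chains Cd8a and Cd8b1. Of these 3, limma called 1, the relative Lilrb4, against 3.36% of all tested genes. Pirb, a class I receptor, had a log2 change of -0.07 and was not called. Lilrb4, a relative of the class I receptor Pirb, had 295, 309 and 242 normalized counts in LD-low and 135, 159 and 129 in LD-high. It fell by 0.99 (SE 0.17; adjusted p = 0.00713) and passed on leaving out any single library. Klrd1, the CD94 chain of the receptor for Qa-1 and also a natural killer cell gene, had 77.2, 115 and 132 in LD-low and 59.6, 47.0 and 60.1 in LD-high (log2 change -0.92 ± 0.26, adjusted p = 0.0679).

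**Figure D5:**
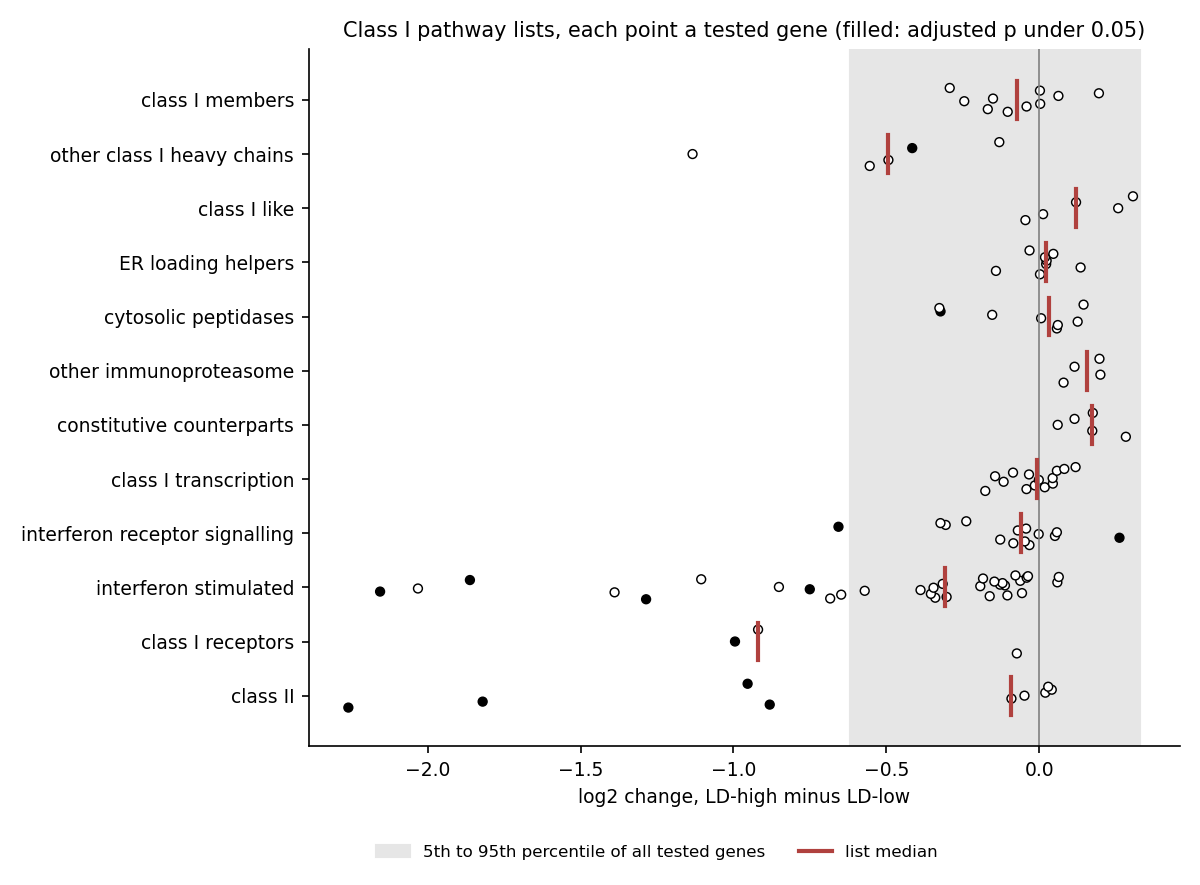
Log2 change (LD-high minus LD-low) of each tested gene of the class I pathway lists, with the list medians and the range from the 5th to the 95th percentile of all tested genes (-0.62 to 0.33). The class I members lie inside this range, and filled points below it belong to the class II, interferon-stimulated, receptor and interferon signalling lists.

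Other cells could carry class I and class II transcripts. Microglial markers were high throughout (8 of 8 in the table, summed level 1065310 to 1207930 in LD-low and 1069250 to 1128890 in LD-high), 0 of them called by limma or edgeR, 1 by DESeq2 and 1 at an unadjusted p under 0.05. Of 7 neutrophil markers 6 were in the table and all 6 were lower in LD-high, with a summed level of 1220 to 4523 in LD-low and 0 in every LD-high library. LD-low 3 held the most neutrophil marker counts. Border macrophage markers, of a cell type that carries class II, had all 8 tested members below 0 (median -0.74), with 0 called by limma, edgeR or DESeq2 and 3 at an unadjusted p under 0.05. They summed to 546 to 944 in LD-low and 342 to 574 in LD-high. Ccr1 had the highest mean of them, at 318, 561 and 293 in LD-low and 122, 303 and 175 in LD-high, with overlap. Mrc1 came next, at 153, 198 and 80.8 in LD-low and 183, 122 and 102 in LD-high. Its log2 change was -0.04 ± 0.29 (limma adjusted p = 0.964). Dendritic cell markers summed to 460 to 531 in LD-low and 390 to 402 in LD-high. Their 4 tested members went both ways, 2 above 0 and 2 below (median -0.08), with 0 called by limma, edgeR or DESeq2. Monocyte markers summed to 282 to 674 and 90.7 to 127 (4 of 6 at 0 in every LD-high library). Of these, Chil3 had 123, 172 and 506 normalized counts in LD-low and 0 in every LD-high library. Ccr2 had 140, 155 and 114 in LD-low and 96.8, 84.0 and 127 in LD-high (limma adjusted p = 0.305). B cell markers (2 of 6 listed) summed to 678 to 733 and 655 to 764. This sum was nearly all Cd79b, with Cd79a at 0 to 11.7. Natural killer cell markers, of which 2 of 6 were listed, summed to 83.5 to 137 and 48.2 to 65.1. This sum was nearly all Klrd1, described above, with Klrb1c at 0 to 6.32 and without a fall in its mean (3.65 in LD-low, 3.78 in LD-high). T cell markers (2 of 8 listed) summed to 5.61 to 13.9 and 8.94 to 35.8. Choroid plexus markers summed to 115 to 736 in LD-low and 710 to 2199 in LD-high, with 2 higher. Of all tested genes limma called 1.53% higher and 1.82% lower, and 19.8% had an unadjusted p under 0.05. EdgeR called 3.24% and DESeq2 6.27%. The part of these other cells in the results above was not tested.

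The genes closest in profile to the mean of the 10 over the 6 libraries, by root mean square difference of centred log2 values, were Apbb1ip (0.013), P2rx7 (0.015), Tmem128 (0.016), Pml (0.022) and Fam118b (0.022). The mean profile was 0.05, 0.03 and 0.03 in LD-low 1, 2 and 3 and 0.0063, -0.03 and -0.09 in LD-high 1, 2 and 3. In this mean every LD-high library lay below every LD-low one. Of all tested genes taken singly 11.7% did so, a share that is not a background for a mean of 10 genes. Among the 10 genes themselves, 2 lay wholly below and 1 wholly above, with 6 changes below 0 and 4 above. A change of the mean profile was not tested. The genes listed as closest had changes of -0.08 to -0.04, with limma adjusted p of 0.586 to 0.857.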

How the data were processed

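Hippocampal microglia of aged male mice were sorted by BODIPY into LD-low and LD-high groups of 3 libraries each, made with a Smart-seq low-input kit and tagmentation that does not mark strand, per the labels' protocols. Reads were mapped with STAR 2.5.1b to mm9 after a check with FastQC 0.11.4, and counted by STAR, per the submitters' processing notes. Which annotation and strand setting were used is not given in the sources used here. Values are a normalized signal: counts that the authors divided by 1 size factor per library. Dividing by the step of each library gave whole reads for 100% of values within 0.01 reads, and size factors of 0.599 to 1.43. All 6 columns were used.

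Groups were compared with limma 3.58.1 under R 4.3.3, its variances following the mean, on log2(value + 1), a scale that understates the change of low genes, for genes of at least 10 in at least 3 libraries. P-values were 2-sided, adjusted by Benjamini-Hochberg over all 11624 tested genes, with 0.05 as the threshold. On the recovered reads, edgeR 4.0.16 called 377 genes and DESeq2 1.42.0 called 729. Ratios were tested by the exact permutation test (Python 3.11.15, SciPy 1.17.1). The limma step was tested on simulated data. Coordinates and exon lengths came from GENCODE vM1 (mm9), and promoters from RefSeq (GRCm38.p6).

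The 10 genes, the lists and the tests were chosen with earlier results of these data known. Beside the 10 genes, the text names fixed proteasome and class II genes, members of each pathway list past the threshold or with the smallest p, and the 5 genes closest in profile. Alternatives changed the pseudocount, filter, scaling, trend, tool, replicate block, threshold and library left out.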

Additional observations from a re-analysis of the deposited data

How the results depend on the processing

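Of the 10 class I genes 0 were called under 17 of 18 alternatives, edgeR and DESeq2 among them (3 had an unadjusted p under 0.05 in the main limma test). The exception was a replicate block on the shared replicate number, which called 1, Tap1 (adjusted p = 0.0383), where 9.38% of all tested genes passed. Nothing in the labels ties same-numbered samples to the same mice. Their deviations from the group means correlated at 0.161, 0.132 and 0.0641, so the numbers were not taken as pairs, although every sample correlated best with its own number. The block called 1090 of all tested genes and 20 pathway list genes (main 390 and 13). Quantile normalization called 237 and 6. Without the mean-variance trend 15 and 0 were called by limma, with 30 pathway list genes at an unadjusted p under 0.05 and 11 and 16 of them called by edgeR and DESeq2. DESeq2 called 729 of all tested genes, and a threshold of 0.1 called 819. Leaving out each library in turn gave 52 (LD-low 3) to 421 (LD-low 1) of all tested genes, with 82 without LD-low 2, 231, 201 and 90 without LD-high 1, 2 and 3, and 2 (LD-low 3) to 12 (LD-low 1) pathway list genes.

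Signs near 0 were not stable. B2m had a log2 change of -0.039 with equal totals and -0.064 with quantile normalization, and -0.068 to 0.064 over the leave-one-out fits. Psmb9 had -0.040 with equal totals and -0.066 to 0.046 over those fits, H2-T23 -0.093 to 0.017 and P2ry12, a microglial marker, -0.050 to 0.042. The log2 ratio of Psmb10 to Psmb7 ran from -0.0084 to 0.039. The cause was not tested. Nlrc5, with 121 to 362 reads per library, had the widest interval of the 10 genes.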
